A study of Mus musculus with 8 samples.

Results

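Small leucine-rich proteoglycans (SLRPs) and the large proteoglycan versican of the mouse kidney were followed through 8 genes, namely Dcn, Bgn and Aspn, Lum, Fmod and Prelp, Ogn, and Vcan. They were chosen by name, as stromal proteoglycans of the kidney interstitium, and each was read from the row whose Ensembl identifier maps to its symbol. All 8 had a row among the 37583 gene rows of every library, and all 8 passed the filter on low counts. The libraries came from whole kidneys, 4 labelled knockout (KO), from mice with b-actinCreERT2 and floxed Tfap2b on both alleles (TFAP2Bfl/fl), and 4 labelled wildtype (WT), from control littermates. CreERT2 is a Cre recombinase that acts once tamoxifen is present, here under a beta-actin promoter and so not limited to one cell type. The labels give neither age, sex, inducing treatment nor time since induction. The genotype of the controls is given only as WT, and whether they received the inducer is not stated.

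SLRPs are secreted proteins built around leucine-rich repeats that curve around collagen fibrils and set how thick the fibrils grow and how closely they pack. Decorin (Dcn), biglycan (Bgn) and asporin (Aspn) form class I, lumican (Lum), fibromodulin (Fmod) and prolargin (Prelp) class II, and osteoglycin (Ogn) class III. Decorin and biglycan carry chondroitin or dermatan sulfate chains, lumican and fibromodulin carry keratan sulfate, and asporin lacks such a chain. Versican (Vcan) is not an SLRP but a large chondroitin sulfate proteoglycan that binds hyaluronan, and its complex with hyaluronan is held together by link proteins. In the kidney these genes are known mainly from interstitial and perivascular fibroblasts and the mesangium. In whole tissue, fewer cells of a type and less RNA per cell cannot be told apart.

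The gene targeted in the mice encodes AP-2 beta, a transcription factor, and the palindrome GCCNNNGGC is a known AP-2 recognition motif that reads the same on both strands. Of the 8 genes, 6 matched a promoter in the RefSeq table (GRCm38.p6), all but Dcn and Lum. In the 250 bases before the transcript start, the motif was found in 1 of the 6, Vcan, where it began 224 bases before the start. Among all 32851 promoter windows of that length, 4509 (13.7%) held it. The Vcan window lay at chr13:89742513-89742762 on the minus strand, and that of Bgn at chrX:73483351-73483600 on the plus strand. Both are shown because Vcan was the gene of the group that fell and Bgn the matched gene that rose, with capitals marking the motif.
Vcan: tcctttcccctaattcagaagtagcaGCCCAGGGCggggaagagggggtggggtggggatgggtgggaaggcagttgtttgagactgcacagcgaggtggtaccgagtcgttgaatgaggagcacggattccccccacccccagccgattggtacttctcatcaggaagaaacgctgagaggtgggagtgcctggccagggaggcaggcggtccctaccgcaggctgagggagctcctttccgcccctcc
Bgn: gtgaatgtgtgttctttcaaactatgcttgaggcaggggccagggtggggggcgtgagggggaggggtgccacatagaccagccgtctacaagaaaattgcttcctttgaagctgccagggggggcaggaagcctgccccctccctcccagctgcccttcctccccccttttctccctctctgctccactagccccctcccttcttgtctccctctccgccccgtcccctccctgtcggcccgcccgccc
Both windows were rich in G and C, at 62.4% for Vcan and 64.4% for Bgn.

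Gene counts per library came to 13435113 to 17930347 in the KO-labelled libraries and 13783857 to 17741722 in the WT-labelled ones. Whole-gene counts of Tfap2b itself were higher in the KO-labelled libraries, at 246 ± 14.1 CPM (counts scaled to a common library size) against 103 ± 6.73 CPM in the WT-labelled ones (SD, n = 4 each). Counts over the whole gene take in exons that the deletion may leave in place, so they check neither the deletion nor the labels, and every direction below is that of the KO-labelled libraries over the WT-labelled ones. Knockout library 4 stood apart in adrenal markers, with a summed 257 CPM over 9 genes against 10.6 to 11.5 CPM in the other KO-labelled libraries and 7.26 to 10.5 CPM in the WT-labelled ones. Adipocyte markers summed to 231 to 990 CPM in the KO-labelled libraries, highest in knockout 2, and to 199 to 609 CPM in the WT-labelled ones. The tissue label was borne out by proximal tubule markers, which summed to 19620 to 25550 CPM in the KO-labelled libraries and to 21350 to 28850 CPM in the WT-labelled ones.

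Across the 8 genes, the kidneys labelled KO held more decorin, lumican and biglycan transcript and less versican transcript. Decorin and lumican were 1.91-fold and 1.87-fold higher, biglycan was 1.42-fold higher, and versican was 2.66-fold lower. Fibromodulin, osteoglycin, prolargin and asporin did not pass the test. By edgeR's quasi-likelihood test with Benjamini-Hochberg adjustment over all 15228 tested genes, 3 of the 8 rose and 1 fell at an adjusted p under 0.05, where 11.9% of all tested genes passed, 6.23% rising and 5.70% falling. The groups did not overlap for 4 of the 8 genes, the same ones, 3 higher and 1 lower, while 18.5% of all tested genes were without overlap, 9.42% higher and 9.05% lower. The median log2 fold change of the 8 was 0.14, against 0.00 over all tested genes. No label says whether the 4 kidneys of a group came from 4 animals, so the p-values measure the spread between these samples.

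**Figure D1:**
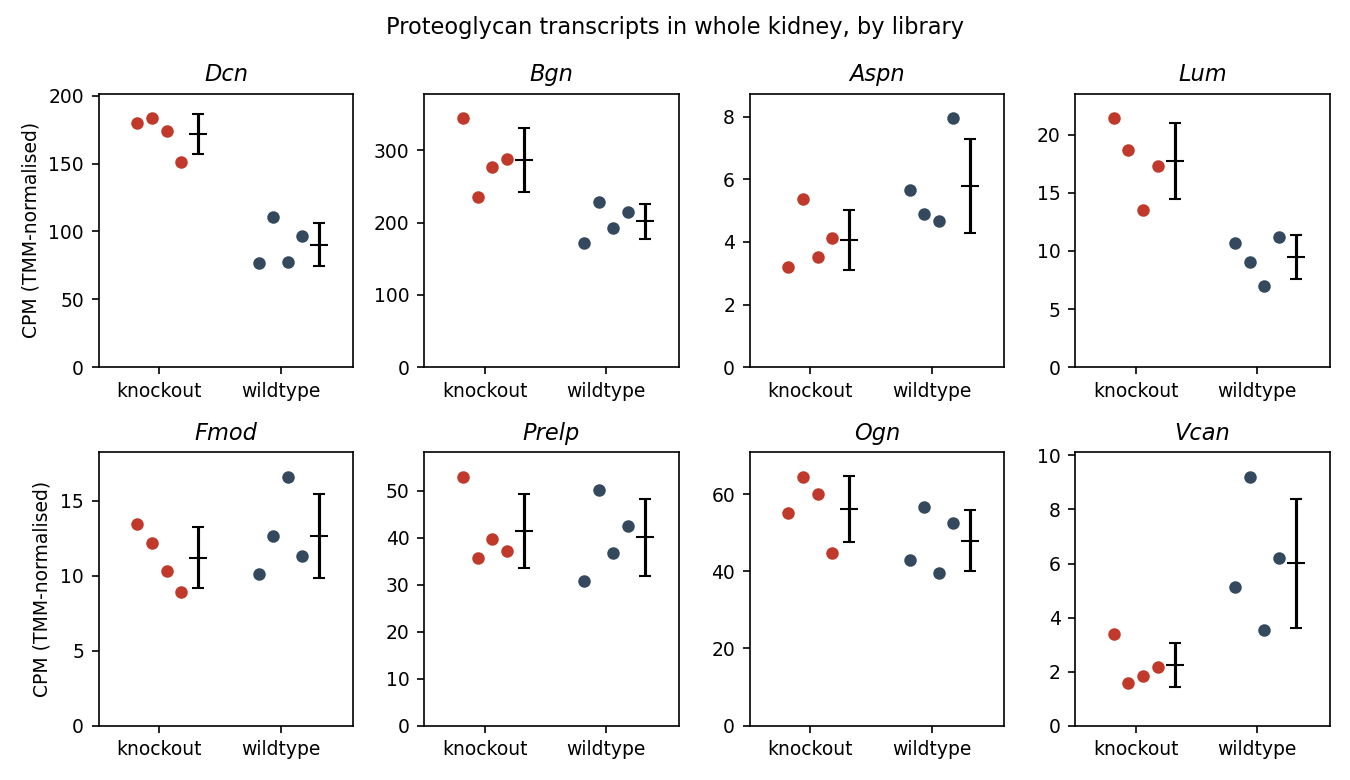
TMM-normalised CPM of the 8 genes (vertical axes, each from 0) in each library, with knockout points left of wildtype points, and the mean and SD of 4 libraries beside them. Points of the labelled groups do not overlap for Dcn, Bgn, Lum and Vcan, and they overlap for Aspn, Fmod, Prelp and Ogn.

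Among the class I genes, decorin, which binds collagen and also sequesters TGF-beta, stood at 180, 183, 174 and 151 CPM in the KO-labelled libraries and at 76.9, 110.3, 77.7 and 96.3 CPM in the WT-labelled ones. The lowest KO-labelled library lay well above the highest WT-labelled one. Its log2 fold change was 0.93 ± 0.12 (SE), with an edgeR adjusted p of 0.000894 and an exact two-sided permutation p of 0.0286, the smallest that 4 against 4 allows. The call held in all 18 alternatives tried, with log2 fold changes of 0.86 to 1.04.

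Biglycan, which also binds collagen and, when released, acts as a ligand of Toll-like receptors, was at 344, 236, 277 and 289 CPM in the KO-labelled libraries and at 172, 228, 193 and 215 CPM in the WT-labelled ones. The groups came close, since knockout 2 at 236 CPM lay just above wildtype 2 at 228 CPM, and knockout 1 was the highest of all. Its log2 fold change was 0.50 ± 0.12 (SE; edgeR adjusted p = 0.0212; exact permutation p = 0.0286). This call did not hold in every fit that left out 1 library. It ended without knockout 4 (adjusted p = 0.0558), without wildtype 1 (adjusted p = 0.0557) and without wildtype 3 (adjusted p = 0.0609). In those fits the log2 fold change was 0.50, 0.43 and 0.48, and 1176, 1398 and 1246 genes were called, against 1817. Without knockout 1 the call held (0.40, adjusted p = 0.0359). Leaving out 1 library in turn kept biglycan's log2 fold change between 0.40 and 0.59. Without knockout libraries 1 and 4 together its log2 fold change was 0.34 (adjusted p = 0.149).

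Asporin, a class I protein that competes with decorin for collagen and binds TGF-beta, was scarce, at 3.22 to 5.39 CPM in the KO-labelled libraries and 4.66 to 7.95 CPM in the WT-labelled ones. The groups overlapped, and its log2 fold change of -0.51 ± 0.22 (SE) did not pass (edgeR adjusted p = 0.16). It did not pass in any alternative, with log2 fold changes of -0.76 to -0.32.

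Of the class II genes, lumican, a keratan sulfate proteoglycan that limits fibril thickness, stood at 21.4, 18.7, 13.5 and 17.3 CPM in the KO-labelled libraries and at 10.7, 9.06, 6.99 and 11.2 CPM in the WT-labelled ones. Every KO-labelled library was above every WT-labelled one, with knockout 3 the lowest of its group. The log2 fold change was 0.90 ± 0.17 (SE), with an exact permutation p of 0.0286 and an edgeR adjusted p of 0.00739. The call ended without knockout libraries 1 and 4 together (0.76, adjusted p = 0.0672) and when a score for the circadian clock was added to the fit (0.94, adjusted p = 0.0674).

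Fibromodulin, which shares lumican's collagen site and acts on early fibril assembly, was at 8.88 to 13.5 CPM in the KO-labelled libraries and 10.1 to 16.6 CPM in the WT-labelled ones. Prolargin, which anchors basement membranes to the collagen beneath them, was at 35.7 to 52.9 CPM in the KO-labelled libraries and 30.8 to 50.1 CPM in the WT-labelled ones. The groups overlapped for both genes. Their log2 fold changes were -0.18 ± 0.17 for Fmod and 0.05 ± 0.16 for Prelp (SE; edgeR adjusted p = 0.553 and 0.887). Neither passed in any alternative, and the sign was not fixed for either one, with -0.28 to 0.26 for Fmod and -0.10 to 0.36 for Prelp.

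The class III gene Ogn, whose product osteoglycin also regulates fibril assembly, was at 44.7 to 64.4 CPM in the KO-labelled libraries and 39.6 to 56.6 CPM in the WT-labelled ones, with overlap. Its log2 fold change was 0.23 ± 0.14 (SE; edgeR adjusted p = 0.315).

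Versican was the gene of the group that fell. It stood at 3.39, 1.58, 1.85 and 2.17 CPM in the KO-labelled libraries and at 5.12, 9.21, 3.55 and 6.19 CPM in the WT-labelled ones. These values rested on 58, 27, 33 and 30 counts in the KO-labelled libraries and on 68, 126, 61 and 102 counts in the WT-labelled ones. The groups did not overlap, but knockout 1 and wildtype 3 were close. The log2 fold change was -1.41 ± 0.32 (SE), with an exact permutation p of 0.0286 and an edgeR adjusted p of 0.017. The call ended without knockout 2 (adjusted p = 0.0564), without knockout 4 (adjusted p = 0.0526) and when the clock score was added to the fit (-1.21, adjusted p = 0.188), while the log2 fold change lay between -1.80 and -1.14 throughout. Versican transcripts are spliced into several forms with different numbers of attachment regions for the sugar chains, and counts per gene do not separate them.

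Levels of different genes can be compared only per length, here as CPM per kilobase of the exons joined from GENCODE M21. On that scale the order of mean levels was Bgn, Dcn, Ogn, Prelp, Lum, Fmod, Aspn and Vcan in the KO-labelled libraries, and in the WT-labelled ones it was Bgn, Ogn, Dcn, Prelp, Lum, Fmod, Aspn and Vcan. Decorin stood at 29.4 ± 2.50 CPM per kilobase in the KO-labelled libraries, above osteoglycin at 21.9 ± 3.31 (SD, n = 4 each). In the WT-labelled ones decorin was at 15.5 ± 2.75 and osteoglycin at 18.7 ± 3.12. Osteoglycin was above decorin in each WT-labelled library, and decorin above osteoglycin in each KO-labelled one. Lumican at 3.88 ± 0.78 and fibromodulin at 3.83 ± 0.85 CPM per kilobase had similar means in the libraries labelled wildtype. Their order there varied, with lumican higher in wildtype 1 and wildtype 4 and lower in wildtype 2 and wildtype 3. In the libraries labelled knockout lumican was at 7.24 ± 1.35 and fibromodulin at 3.39 ± 0.61. Versican was lowest by this measure, at 0.16 ± 0.055 CPM per kilobase in the KO-labelled libraries and 0.42 ± 0.17 in the WT-labelled ones. The joined exons take in every annotated form and can be longer than the transcript made, at 5838 bases for Dcn, 6099 for Bgn and 2566 for Ogn. Before division by length, decorin was above osteoglycin in the WT-labelled libraries too, at 90.3 against 47.9 CPM. The order of genes and the shares below thus depend on the lengths used.

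Of the summed per-length level of the 8 genes, decorin made up 24.2 ± 1.85% in the KO-labelled libraries and 17.3 ± 0.81% in the WT-labelled ones (SD, n = 4 each). Biglycan kept a similar share, 38.4 ± 4.25% in the KO-labelled libraries and 37.3 ± 1.30% in the WT-labelled ones. Prolargin made up 9.30 ± 0.97% in the KO-labelled libraries and 12.4 ± 1.01% in the WT-labelled ones, while its CPM did not pass the test. The sum itself was 122 ± 10.9 CPM per kilobase in the KO-labelled libraries and 88.9 ± 12.2 in the WT-labelled ones.

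Whether the genes moved unequally was asked of all 28 pairs, with the difference of log2 CPM between 2 genes taken within each library. The log2 ratio of Dcn to Lum was 3.28 ± 0.28 in the KO-labelled libraries and 3.24 ± 0.34 in the WT-labelled ones (SD, n = 4 each), a difference of 0.05 (exact permutation p = 0.886). The log2 ratio of Dcn to Bgn was -0.73 ± 0.27 in the KO-labelled libraries and -1.17 ± 0.11 in the WT-labelled ones (difference 0.44, exact permutation p = 0.0286). That of Dcn to Ogn was 1.62 ± 0.12 in the KO-labelled libraries and 0.91 ± 0.065 in the WT-labelled ones (difference 0.71, exact permutation p = 0.0286). The widest gap was between Dcn and Vcan, with a log2 ratio of 6.23 ± 0.47 in the KO-labelled libraries and 3.94 ± 0.35 in the WT-labelled ones (difference 2.29, exact permutation p = 0.0286). In 14 of the 28 pairs the p was the smallest that the design allows, which became 0.0571 after Benjamini-Hochberg adjustment over the pairs, so that 0 of 28 passed. However large its difference, a pair could pass only if enough other pairs also reached that smallest p. The 0 therefore does not show that the genes moved equally. Of the 7 pairs with Vcan, 5 were among these 14, and the pairs of Vcan with Fmod and Aspn were not (exact permutation p = 0.0857 and 0.114). For the pairs of Vcan with Dcn, Lum and Bgn the smallest p was fixed in advance and adds nothing to the single genes. Each of these genes was without overlap by itself, and Vcan moved the opposite way.

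Several of the genes sit next to each other on the chromosomes. In the RefSeq assembly GRCm38.p6, no other protein-coding gene starts between Dcn and Lum on chromosome 10, between Prelp and Fmod on chromosome 1, or between Hapln1 and Vcan on chromosome 13. Dcn and Lum, which rose, are followed by Kera, with 0 counts in all 8 libraries, and by Epyc, with 36 counts over the KO-labelled libraries and 30 over the WT-labelled ones. The chromosome 13 row Ecm2, Aspn, Omd and Ogn held no gene that passed. Kera and Epyc encode the SLRPs keratocan and epiphycan, known from cornea and cartilage.

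Reads of overlapping genes cannot be told apart where the counting ignores strand. In GENCODE M21 the antisense gene Gm15851 shared 350 exon bases with Prelp, and had at most 2 counts in any library. The protein-coding gene Cenpp, on the other strand, shared 7 exon bases with Aspn. No annotated exon of another gene overlapped those of Dcn, Lum, Bgn, Fmod, Ogn or Vcan.

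Of 11 other SLRPs and related leucine-rich matrix genes, 7 were tested and edgeR called 0 of them. At an unadjusted p under 0.05 edgeR had 2 of the 7, Chadl and Nyx, where 27.1% of all tested genes had such a p, and DESeq2 and limma voom called 0. Without knockout 1, edgeR called 1 higher. Podn, for podocan, was at 32.2 ± 2.96 CPM in the KO-labelled libraries and 31.2 ± 5.08 CPM in the WT-labelled ones (SD, n = 4 each; log2 fold change 0.04, edgeR adjusted p = 0.847). Ecm2, Omd and Tsku had log2 fold changes of 0.08, 0.02 and -0.36 (edgeR adjusted p = 0.751, 0.97 and 0.276). Chadl had -0.41 (adjusted p = 0.0875), and the scarce Nyx and Podnl1 had 1.12 and 0.83 (adjusted p = 0.0975 and 0.258).

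**Figure D2:**
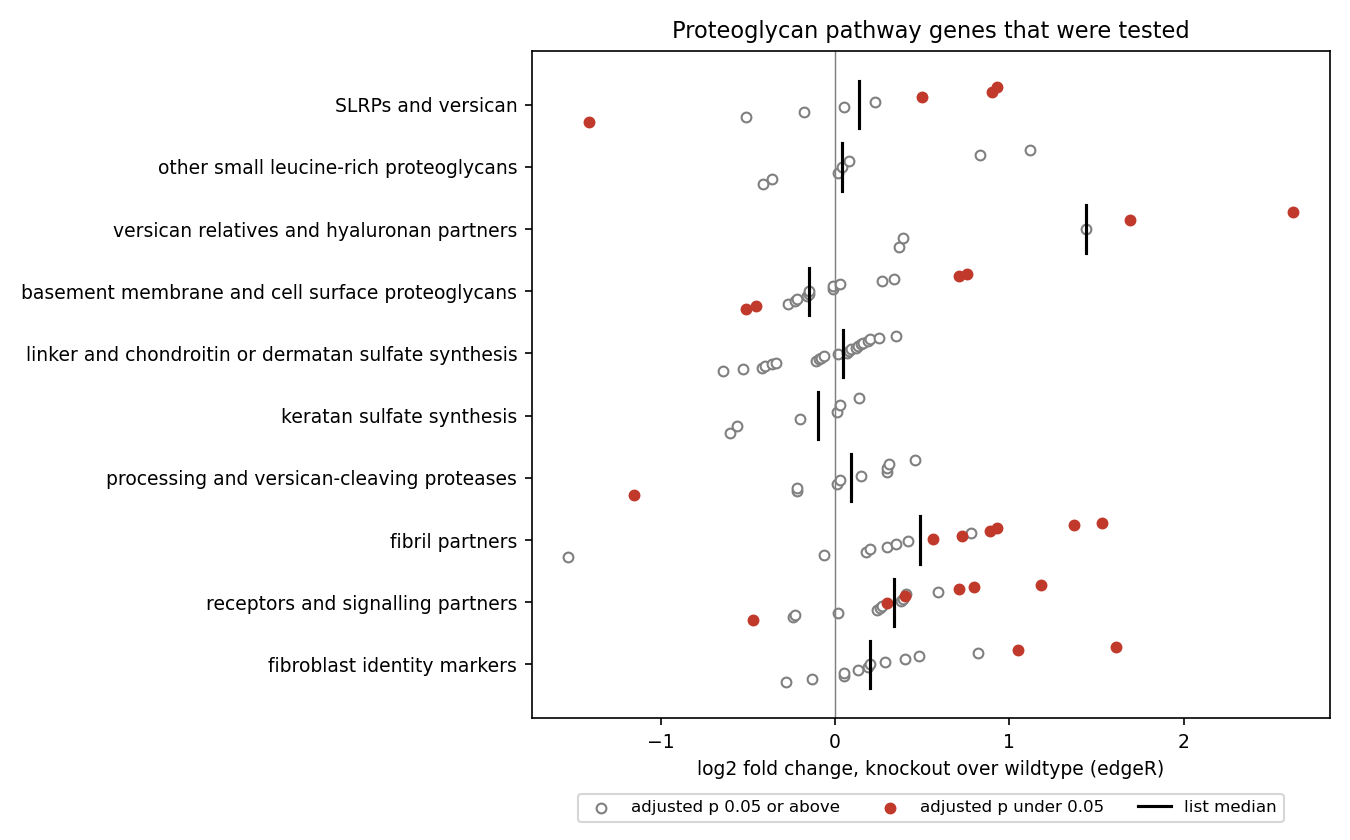
Log2 fold change (horizontal axis, edgeR, KO-labelled over WT-labelled libraries) of each tested gene in 10 lists (vertical axis), with filled points for an adjusted p under 0.05 and a bar at the list median. The top row holds the 8 SLRP and versican genes, with 3 filled points to the right of 0 and 1 to the left.

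Versican's relatives and the hyaluronan machinery were mostly too scarce to test, with 5 of 14 tested. Of these 2 rose and 0 fell, against 6.23% and 5.70% of all tested genes. Hapln1, the link protein that locks versican onto hyaluronan and the neighbour of Vcan, was at 1.93, 3.69, 3.08 and 4.33 CPM in the KO-labelled libraries and at 0.38, 1.02, 0.23 and 0.49 CPM in the WT-labelled ones. It rose while Vcan fell, with a log2 fold change of 2.63 ± 0.41 (SE; edgeR adjusted p = 0.00233; exact permutation p = 0.0286). Hapln1 was near the floor in the WT-labelled libraries and passed the filter on low counts through the KO-labelled ones. The size of its rise is therefore uncertain. Cd44, the hyaluronan receptor, was at 12.5 ± 4.44 CPM in the KO-labelled libraries and 3.87 ± 1.59 CPM in the WT-labelled ones (log2 fold change 1.69 ± 0.34, SE; edgeR adjusted p = 0.0122). Hmmr and Has3 had log2 fold changes of 1.44 and 0.37 (adjusted p = 0.11 and 0.285). The related proteoglycan genes Acan, Ncan and Bcan and the hyaluronan synthases Has1 and Has2 had at most 10 counts in any library.

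The enzymes that build the sugar chains gave few calls. Of 22 tested genes for the linker and for chondroitin or dermatan sulfate, edgeR called 0, with 4 at an unadjusted p under 0.05 (27.1% of all tested genes), 1 called by DESeq2 and 0 by limma voom. The smallest adjusted p-values were those of Ugdh, which makes the glucuronate donor (log2 fold change 0.25, edgeR adjusted p = 0.0771), and of Chst15, a chondroitin sulfotransferase (-0.36, adjusted p = 0.0783). Of 6 tested genes for keratan sulfate, edgeR called 0, with 2 at an unadjusted p under 0.05 and 0 called by DESeq2 or limma voom. Leaving out 1 library gave 1 linker or chondroitin sulfate gene higher without knockout 1 and 1 lower without knockout 3, and 1 keratan sulfate gene lower without wildtype 3. B4galt4 and B3gnt2 had log2 fold changes of -0.56 and -0.60 (adjusted p = 0.116 and 0.153).

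Among 10 tested processing and versican-cleaving proteases, 1 fell and edgeR called 0 higher, or 1 without wildtype 4. Since 5.70% of all tested genes fell and 6.23% rose, these counts say little about the list. Adamts8 was at 5.85 ± 1.91 CPM in the KO-labelled libraries and 13.0 ± 1.08 CPM in the WT-labelled ones (SD, n = 4 each; log2 fold change -1.15 ± 0.20, SE; edgeR adjusted p = 0.00447). For Adamts1, which cuts versican, the log2 fold change was 0.46 ± 0.19 (adjusted p = 0.164). Bmp1, which removes the propeptide of biglycan, had 0.31 (adjusted p = 0.27).

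Of 14 fibril partners of the SLRPs, edgeR called 6 higher and 0 lower, with a list median of 0.49, while DESeq2 called 1 lower and limma voom 0. Over all tested genes edgeR called 6.23% higher and 5.70% lower. Without knockout 4 or without wildtype 1, 3 were called higher, and without wildtype 4, 1 was called lower. Among the fibril collagen genes, Col1a1, Col3a1 and Col1a2 rose by log2 fold changes of 1.53 ± 0.26, 1.37 ± 0.28 and 0.93 ± 0.18 (SE; edgeR adjusted p = 0.00916, 0.0211 and 0.0111). Of the collagen VI genes, Col6a1 rose by 0.89 ± 0.16 (adjusted p = 0.0062). Col6a2 and Col6a3 did not pass (0.78 and 0.18, adjusted p = 0.0719 and 0.655). The fibril collagen gene Col5a1 did not pass either (0.42, adjusted p = 0.117). Col5a2, another fibril collagen gene, lay the other way and did not pass, at 22.04, 18.3, 14.2 and 19.4 CPM in the KO-labelled libraries and at 82.7, 48.1, 68.5 and 14.2 CPM in the WT-labelled ones, where wildtype 4 overlapped with the other group. Its log2 fold change was -1.53 ± 0.51 (SE; edgeR unadjusted p = 0.0201, adjusted p = 0.105). Col1a1 and Col3a1 were at 107 ± 37.7 and 168 ± 51.5 CPM in the KO-labelled libraries and at 37.0 ± 7.26 and 65.1 ± 20.5 CPM in the WT-labelled ones (SD, n = 4 each). Knockout 1 was the highest library for Col1a1 and Col3a1, as for biglycan and lumican.

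Of 16 receptors and signalling partners, 5 rose and 1 fell, where 6.23% of all tested genes rose and 5.70% fell. Only 2 rose without wildtype 3 or without wildtype 4, and 3 rose without knockout 2, without knockout 4 or without wildtype 2; 2 fell without knockout 1. Cd14 and Tlr2, parts of the receptor complexes that free biglycan engages, rose by log2 fold changes of 0.80 ± 0.12 and 0.71 ± 0.17 (SE; edgeR adjusted p = 0.0018 and 0.0218). The Toll-like receptor gene Tlr4 did not pass, with a log2 fold change of 0.26 (edgeR adjusted p = 0.417). P2rx4, P2rx7 and Nlrp3 of the same list did not pass either (0.02, 0.39 and 0.59, adjusted p = 0.85, 0.123 and 0.223). Egfr, a receptor that decorin binds, fell by 0.47 ± 0.086 on the log2 scale (edgeR adjusted p = 0.00557). Ccn4, a secreted protein that binds decorin and biglycan, rose by 1.18 ± 0.25 (adjusted p = 0.0117), and Tgfb1 by 0.40 ± 0.11 (adjusted p = 0.0426). Of 15 tested basement membrane and cell surface proteoglycans, 2 rose and 2 fell, and 1 rose without any 1 of 6 libraries (all but knockout 3 and wildtype 2). Without knockout 3, knockout 4 or wildtype 3, 1 fell. The counts also grew in places, since 3 fell without knockout 1, and 3 rose without knockout 3 and with DESeq2. Col18a1 was at 554 ± 17.4 CPM in the KO-labelled libraries and 327 ± 29.7 CPM in the WT-labelled ones (SD, n = 4 each; edgeR adjusted p = 0.00025), and Gpc6 rose by 0.71 on the log2 scale (adjusted p = 0.032). Gpc4 and Gpc3 fell by 0.45 and 0.51 on the log2 scale (adjusted p = 0.00923 and 0.0277).

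Markers of other cells moved with the groups too, and their counts stand beside 6.23% rising and 5.70% falling over all tested genes. Of 9 macrophage markers, 8 rose, with summed levels of 324 to 566 CPM in the KO-labelled libraries and 170 to 217 CPM in the WT-labelled ones. The other, Csf1r, was unchanged, at 106.8 ± 8.18 CPM in the KO-labelled libraries and 106.7 ± 10.1 CPM in the WT-labelled ones (SD, edgeR adjusted p = 0.997). Of 8 endothelial markers, 3 fell and edgeR called 0 higher (543 to 611 CPM in the KO-labelled libraries and 572 to 741 CPM in the WT-labelled ones). Only 1 fell without knockout 2, knockout 4, wildtype 1, wildtype 2 or wildtype 4, and 5 fell without wildtype 3. Of 5 distal convoluted tubule markers, 4 fell, and of 7 proximal tubule markers, 3 fell, or 1 without knockout 4 or without wildtype 3. Of 7 urothelial markers, 2 rose. Of 8 smooth muscle and myofibroblast markers edgeR, DESeq2 and limma voom called 0, with 1 at an unadjusted edgeR p under 0.05. For that list edgeR called 1 higher without knockout 3, and 1 higher when scaled by library totals alone. Of 7 adipocyte markers and the 2 adrenal markers that could be tested, the same 3 tools called 0, with 0 at an unadjusted edgeR p under 0.05. Of 13 tested fibroblast identity markers, 2 rose, Dpt and Cdh11, by log2 fold changes of 1.61 ± 0.18 and 1.05 ± 0.22 (SE; edgeR adjusted p = 0.000382 and 0.0158), and 1 rose without wildtype 1. The general fibroblast receptors Pdgfra and Pdgfrb had log2 fold changes of 0.29 ± 0.16 and 0.20 ± 0.12 (adjusted p = 0.294 and 0.312). The summed fibroblast markers were at 230 to 339 CPM in the KO-labelled libraries and 189 to 242 CPM in the WT-labelled ones, with overlap. The clock score, the mean log2 CPM of clock output genes minus that of activators, was -1.57 to 0.91, highest in knockout 1, in the KO-labelled libraries and 0.11 to 2.91 in the WT-labelled ones. The part of these cell types in the changes of the proteoglycan genes was not tested.

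Set against the mean of the 13 fibroblast markers in the same library, the genes lay on both sides. That mean itself was 3.47 ± 0.18 log2 CPM in the KO-labelled libraries and 3.10 ± 0.13 in the WT-labelled ones (SD, n = 4 each; difference 0.37, exact permutation p = 0.0571), and every relative value contains this difference. Relative decorin was 3.95 ± 0.21 log2 units above that mean in the KO-labelled libraries and 3.38 ± 0.16 in the WT-labelled ones (SD, n = 4 each; difference 0.57, exact permutation p = 0.0286). Relative lumican was 0.66 ± 0.13 in the KO-labelled libraries and 0.14 ± 0.32 in the WT-labelled ones (difference 0.52, exact permutation p = 0.0286). For biglycan the difference was 0.12 (exact permutation p = 0.257). Relative versican was -2.28 ± 0.32 in the KO-labelled libraries and -0.56 ± 0.45 in the WT-labelled ones (difference -1.72, exact permutation p = 0.0286). Aspn and Fmod were lower on this scale as well, by differences of -0.87 and -0.54 (exact permutation p = 0.0286 each), although neither passed on its own level, while Prelp and Ogn had -0.32 and -0.15 (exact permutation p = 0.0857 and 0.457). Against Pdgfra and Pdgfrb alone, Dcn, Lum and Vcan kept the smallest possible p of 0.0286, with differences of 0.70, 0.65 and -1.59, and Fmod and Aspn did not (exact permutation p = 0.143 and 0.0571). These p-values were not adjusted, and 8 genes were compared.

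**Figure D3:**
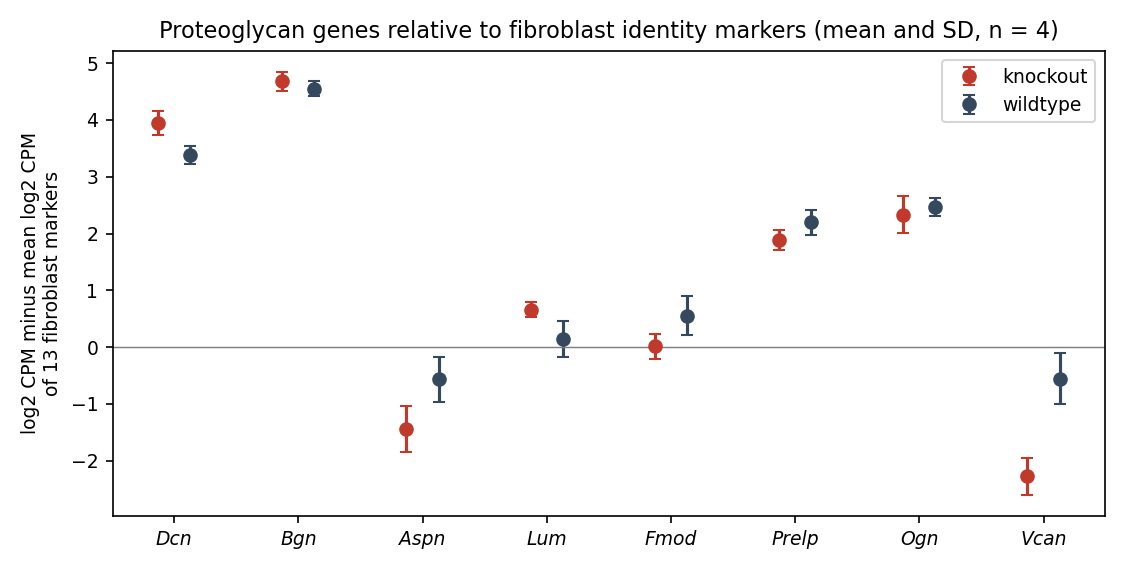
Log2 CPM of each gene minus the mean log2 CPM of 13 fibroblast identity markers in the same library (vertical axis), as mean and SD of 4 libraries, knockout left of wildtype for each gene (horizontal axis). Dcn and Lum lie higher in the KO-labelled libraries, Aspn, Fmod and Vcan lie lower, and Bgn differs by 0.12.

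Likeness of profile over the 8 libraries was measured as the root mean square difference of log2 CPM, each gene centred on its own mean. Decorin's own profile deviated by 0.501 from its mean on that measure, and its nearest genes were Trpv2, a cation channel gene, at 0.077 and Arhgef4 at 0.096. Lumican's nearest were Lhfpl2 at 0.118 and Fam221a at 0.146. Biglycan's nearest were Sdk1 at 0.082 and Wdr66 at 0.09. Versican, with its own deviation of 0.805, was nearest to Slc5a2, a glucose cotransporter gene of the proximal tubule, at 0.244 and to Mbl2 at 0.258, both of which fell (log2 fold change -1.30 and -1.54, edgeR adjusted p = 0.00954 and 0.0325). Prelp was nearest to Nos1ap at 0.065 and Cand2 at 0.084, Ogn to Impg2 and Zbtb2 at 0.105 each, Fmod to Epm2a at 0.095 and Dnhd1 at 0.097, and Aspn to Cox11 at 0.144 and Mboat2 at 0.178. Among the 8 genes themselves the closest pairs were Bgn with Prelp at 0.247, Ogn with Prelp at 0.253 and Dcn with Lum at 0.272, and the most distant was Dcn with Vcan at 1.199. These distances are descriptions of 8 libraries that share one split into groups.

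**Figure D4:**
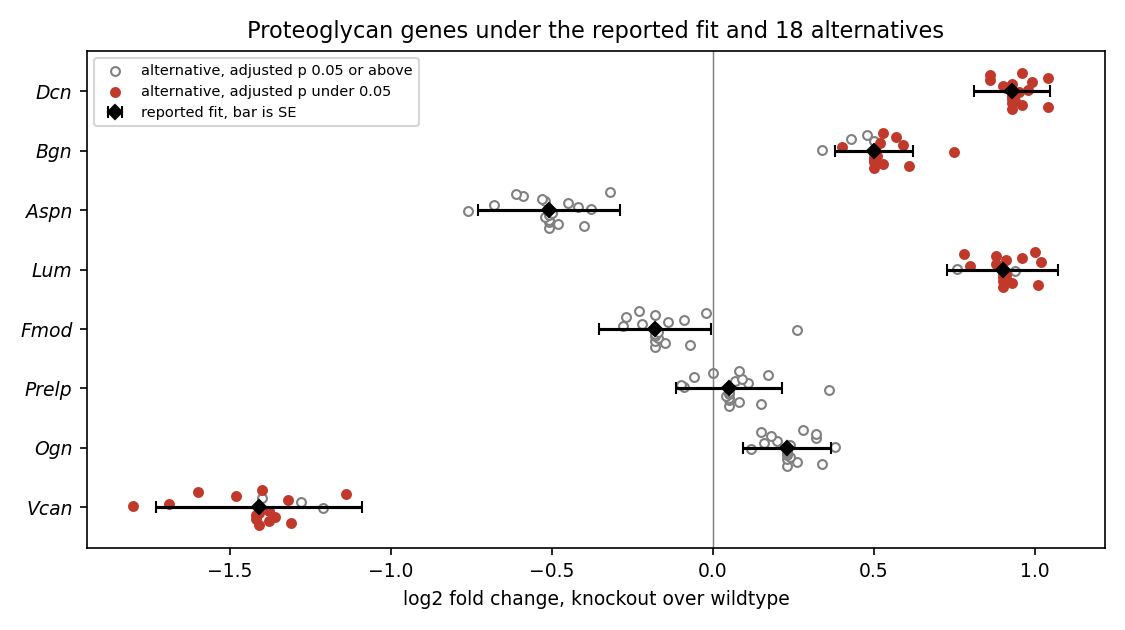
Log2 fold change (horizontal axis, KO-labelled over WT-labelled libraries) of the 8 genes (vertical axis) in the reported fit, with a diamond and its SE, and in 18 alternatives, filled where the adjusted p is under 0.05. Dcn is filled in all 18, Lum in 16, Vcan in 15 and Bgn in 13, and the other genes in 0.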

How the data were processed

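The authors deposited raw counts of reads per gene for each library, not normalized. The submitters' processing notes name STAR, HTSeq, edgeR and the build mm9, with no version or role. Per the labels' protocols a directional kit was used, while the deposited counts are marked as not stranded. Rows of the counter that name no gene were left out, and 63.8% to 69.1% of records were assigned to genes.

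A gene name table matched 32860 of 37583 identifiers. filterByExpr kept 15228 genes, which were scaled by TMM and tested with edgeR 4.0.16 in R 4.3.3 (robust quasi-likelihood, two-sided, Benjamini-Hochberg adjustment, threshold 0.05). CPM of single genes used TMM factors, summed markers library totals alone. Ratios and profiles used log2 CPM with a prior count of 2. For single values, all 70 assignments of libraries to groups gave an exact two-sided permutation p. An adjustment over the 8 genes, planned for the comparison with fibroblast markers, was not applied, and those p-values are unadjusted. Alternatives were DESeq2 1.42.0, limma voom (limma 3.58.1), other scalings and filters, a replicate block, the clock score, and leaving out libraries. Replicate libraries were not copies of each other, since pairs differed by a chi-square of 9.04 to 22.9 per degree of freedom.

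The genes and lists were chosen with earlier results of these data known. Named genes were the 8 genes, every other tested SLRP, up to 4 genes of the smallest adjusted p in each other list, Tfap2b, and the 2 genes of the most similar profile. Pdgfra, Pdgfrb, Bmp1, Tgfb1, Has3, Col5a2, the neighbouring and overlapping genes and those too scarce to test were named after their values were seen. So were Tlr4, P2rx4, P2rx7, Nlrp3, Col5a1, Col6a2, Col6a3 and Csf1r.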

Additional observations from a re-analysis of the deposited data

Results flagged for a closer look

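Among 92 sets of 4 values (levels, summed markers and log2 ratios), 6 held 1 library whose gap to its nearest neighbour took up most of the range of its set, and chance gives about 1 in 20. Wildtype 3 was highest for the log2 ratio of Bgn to Ogn (0.914 of the range) and of Fmod to Ogn (0.868), with Ogn at 39.6 CPM there, its lowest value. Wildtype 3 was also lowest for the summed endothelial markers (0.834), and wildtype 1 highest for the urothelial markers (0.855). Knockout 3 was lowest for the summed smooth muscle and myofibroblast markers (0.863). Knockout 4 was highest for the adrenal markers (0.996), at 257 CPM. Without knockout 4 the log2 fold changes were 0.99 for Dcn, 0.91 for Lum, 0.50 for Bgn and -1.40 for Vcan.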

How the results depend on the processing

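The direction of Dcn, Lum, Bgn and Vcan was kept in all 18 alternatives, and the call in 18 for Dcn, 16 for Lum, 15 for Vcan and 13 for Bgn. Leaving out 1 library in turn gave 1076 (without knockout 2) to 1940 called genes against 1817, with 2 to 3 of the 8 genes rising and 0 to 1 falling; 0 fell without knockout 2 or without knockout 4. Without knockout 4, 1176 genes were called. Leaving out knockout 1 and 4 together gave 912 called genes, and 1 of the 8 rose. Of the lists, fibril partners then had 2 rising, receptors and signalling partners 1, and endothelial markers 0 falling. Adding the clock score gave 810 called genes, 0 of the 8 falling, 2 fibril partners and 3 receptors rising, and 0 proximal tubule markers and 0 proteases falling. The score was itself lower in most KO-labelled libraries, so that fit cannot fully tell clock and group apart. Its SEs were wider, at 0.26 against 0.17 for Lum and 0.48 against 0.32 for Vcan. Against Pdgfra and Pdgfrb only, 3 of the 8 genes differed, against 5 with all fibroblast markers. The cause was not tested. With a replicate block 1094 genes were called, and Bgn no longer passed (adjusted p = 0.0857), with 2 receptors rising and 1 endothelial marker falling; same-numbered libraries did not deviate together (correlations of -0.215 to 0.157), so the numbers are not taken as pairs. With library totals in place of TMM the median of all genes moved to 0.11 on the log2 scale and 76.5% of calls were upward, against 52.2%, with 1 endothelial marker falling. The log2 fold changes were then 1.04 for Dcn, 1.01 for Lum, 0.61 for Bgn and -1.31 for Vcan. Versican and asporin, at 148 and 267 counts over the KO-labelled libraries and 357 and 353 over the WT-labelled ones, are the genes most limited by depth.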
